A study of Drosophila melanogaster with 9 samples.

Results

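CR43283 and stau are the 2 genes described here, out of 15340 genes in a table of normalized read counts from 9 libraries of larval Drosophila melanogaster nerve cords. CR43283 is the long noncoding RNA named cherub in the reference annotation (Entrez 12797884), and stau (Entrez 37065) encodes the RNA-binding protein Staufen. They were chosen by name with their normalized counts in these 9 libraries already known, namely the large share of CR43283 in all counts and its pattern beside chinmo, Imp and Syp, so their levels and the differences between conditions are given as a description, with no test. Ventral nerve cords (VNCs) were dissected at the end of larval life from animals in which nab-GAL4, a GAL4 insertion active in VNC and central brain neuroblasts (NBs) from late embryogenesis, drove 2 transgenes in every condition. UAS-prosperoRNAi lowers prospero (pros), which normally drives the daughter cell of an NB, the ganglion mother cell, toward differentiation. Without it the daughter reverts to an NB-like state, and tumors of dedifferentiated NBs form. UAS-dicer2 enhances RNA interference. The first condition carried nothing else (prosRNAi tumors), the second also carried UAS-chinmoRNAi (prosRNAi, chinmoRNAi tumors) and the third UAS-chinmoFL (prosRNAi, chinmoFL tumors), giving low, intermediate and high levels of chinmo, which encodes a BTB zinc-finger transcription factor of young NBs and early-born neurons. Larvae spent 7 days at 18°C and 3 days at 29°C, each condition has 3 biological replicates (A, B and C) from flies of different parents, and each replicate pooled 51 to 82 nervous systems, so that cells outside the GAL4 domain contributed RNA to every library. No VNC without pros RNAi is among these libraries.

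Staufen binds double-stranded RNA and travels with transcripts to be localized. In the dividing NB it carries prospero mRNA, together with the adaptor Miranda, into the daughter cell. cherub RNA is itself segregated unequally at NB division, and in tumors lacking brat it has been described as bringing Staufen together with Syncrip (Syp), an RNA-binding protein of old NBs. Syp and Imp, an RNA-binding protein of young NBs, form opposing temporal gradients, and chinmo is expressed with Imp. In the reference annotation CR43283 lies on arm 3R and has 3 spliced transcripts of 3478, 4774 and 8311 nt, and stau lies on arm 2R with 3 transcripts of 3509 to 5240 nt. No annotated gene overlaps either of them.

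The libraries held 30677075 to 43415151 reads on genes. As a check of the labels, chinmo had 4518 to 6330 normalized counts in the 3 prosRNAi, chinmoRNAi libraries, 8190 to 8819 in prosRNAi and 71836 to 89792 in prosRNAi, chinmoFL, where reads from the transgene and from the gene are counted together. The log2 difference was 0.66 (SE 0.13) between prosRNAi and prosRNAi, chinmoRNAi (limma on log2 values, adjusted p = 0.00824) and 3.24 (SE 0.09) between prosRNAi, chinmoFL and prosRNAi (adjusted p = 1.73e-05). These are called below the knock-down and the overexpression comparison, and all differences are given as the condition with more Chinmo minus the one with less. Both comparisons use the same 3 prosRNAi libraries.

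CR43283 was at or near the top of all genes by read count in every library. In prosRNAi it had 637094, 623531 and 567240 normalized counts in replicates A, B and C. With chinmo RNAi it had 394617, 323012 and 254620. With chinmo overexpression it had 1340785, 1742815 and 1364048. The 3 conditions did not overlap, and the lowest library of each was above the highest of the condition with less Chinmo. CR43283 ranked first of all genes by count in each prosRNAi and each prosRNAi, chinmoFL library, and 2nd, 2nd and 4th in prosRNAi, chinmoRNAi replicates A, B and C.

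As a share of all normalized counts, CR43283 took 1.69%, 1.67% and 1.57% in the prosRNAi libraries, a mean of 1.64% ± 0.063 (SD, n = 3). With chinmo RNAi its share was 1.10%, 0.919% and 0.691%, a mean of 0.905% ± 0.207 (SD, n = 3). In prosRNAi, chinmoFL it was 3.48%, 4.47% and 3.40%, a mean of 3.78% ± 0.594 (SD, n = 3). The counting error is small beside these spreads, since 271839 to 1575252 reads fell on CR43283 and no 95% Wilson interval of its share reached further than 0.00682 percentage points from the value. Such intervals cover counting error only.

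**Figure D1:**
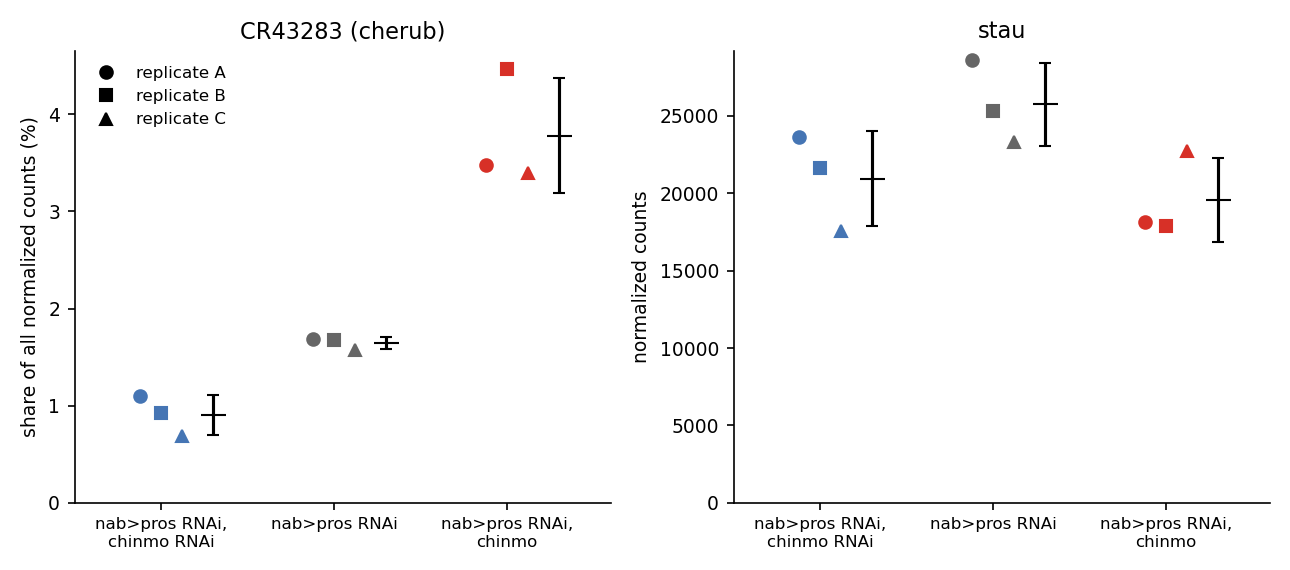
CR43283 as a percentage of all normalized counts (left) and stau in normalized counts (right) in each of the 9 libraries, by condition. Symbols mark replicates A, B and C, and the black dash with bars is the mean ± SD of 3 libraries; CR43283 is ordered without overlap from 0.691% to 4.47%, whereas stau lies between 17574 and 28628 counts with its highest mean in prosRNAi.

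The difference in CR43283 was 0.93 on the log2 scale (SE 0.19, 3 libraries against 3) in the knock-down comparison, or 1.91-fold. It was 1.27 (SE 0.13), or 2.42-fold, in the overexpression comparison, and 2.21 (SE 0.22), or 4.61-fold, between the outer conditions. Among the genes tested, 474 of 11470 had a larger difference in the knock-down comparison and 374 of 11057 in the overexpression comparison. Libraries of a pair of conditions that do not overlap, with the higher values at more Chinmo, are common in this table: 23.4% of genes tested show them in the knock-down comparison, 20.5% in the overexpression comparison and 27.5% between the outer conditions.

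Long transcripts collect more reads, so the place of CR43283 among genes was also set on TPM. This measure scales reads to the length of the transcript and then to the sum of such length-scaled reads in the library. With the longest transcript of each gene as its length, CR43283 had 1240 to 2481 TPM with chinmo RNAi, 3402 to 3689 in prosRNAi and 7403 to 10060 in prosRNAi, chinmoFL. Of 14952 genes with a length it then ranked 85th to 114th, 62nd to 68th and 3rd to 6th. If every CR43283 read came from its shortest transcript, with the longest kept for other genes, its group means would rank 29th, 4th and 1st. The conditions kept their order in TPM as by count. Another length for CR43283 changes its length-scaled reads by the same factor in all libraries, so it could not alter that order. The rank depends on an isoform that gene-level counts do not show.

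stau took between 0.0459% and 0.0757% of normalized counts and ranked 187th to 337th of 15340 genes by count. prosRNAi replicates A, B and C had 28628, 25319 and 23333 normalized counts. The prosRNAi, chinmoRNAi libraries had 23634, 21663 and 17574. The prosRNAi, chinmoFL libraries had 18168, 17897 and 22718. The mean was thus highest at the intermediate Chinmo level: 25760 ± 2675 (SD, n = 3), against 20957 ± 3091 below it and 19594 ± 2709 above it.

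The knock-down difference of stau was 0.30 on the log2 scale (SE 0.15), and its libraries overlapped, since prosRNAi, chinmoRNAi replicate A was above prosRNAi replicate C. Without prosRNAi, chinmoRNAi replicate C the difference was 0.18. In the overexpression comparison the difference was −0.40 (SE 0.14) and the libraries did not overlap, as in 22.2% of genes tested with lower values at more Chinmo. The outer conditions differed by −0.09 (SE 0.17) and overlapped. Per length, stau had 136 to 236, 222 to 263 and 164 to 196 TPM from the lowest to the highest Chinmo level.

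The prosRNAi, chinmoRNAi libraries differed from each other in how counts depended on transcript length. The deviation of genes from their mean over all 9 libraries had a Spearman correlation with length of 0.270 and 0.338 in replicates A and B and of −0.330 in replicate C. It was −0.114 to 0.0726 in the 6 other libraries. Replicate C was the lowest of its group for both CR43283 and stau, which have long transcripts. A trend on length was fitted to the deviations in each library and removed, which also removed length-related differences between conditions. After this, stau had 21105, 17673 and 19506 counts in prosRNAi, chinmoRNAi and 22883 to 28349 in prosRNAi, without overlap. The part of RNA quality or library preparation in this was not tested.

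Because the tumors differ in how many NBs they hold, both genes were set against 7 NB markers (mira, dpn, wor, ase, insc, grh and CycE). In bulk RNA, fewer cells of a type and less RNA per cell cannot be told apart. The summed level of the markers was 65613 to 84768 normalized counts with chinmo RNAi, 130368 to 147369 in prosRNAi and 107258 to 128240 in prosRNAi, chinmoFL. All 7 markers rose in the knock-down comparison (log2 differences 0.79 to 1.10), a direction in which 14.1% of all genes tested passed (limma, adjusted p under 0.05). In the overexpression comparison none rose and 2 fell (mira and CycE), with a range of −0.61 to 0.28, where 9.74% of all genes passed upwards and 8.26% downwards.

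CR43283 had the same proportion to these markers at low and at intermediate Chinmo, within the spread of the libraries, and a larger one at high Chinmo. The ratio of CR43283 to the marker sum was 4.66, 4.51 and 3.88 with chinmo RNAi and 4.32, 4.46 and 4.35 in prosRNAi, with overlap. In prosRNAi, chinmoFL it was 11.3, 16.2 and 10.6, above all 6 other libraries. On the log2 scale the ratio differed by 0.01 (pooled SD 0.10) in the knock-down comparison and by 1.51 (pooled SD 0.23) in the overexpression comparison. Against each marker taken alone, the difference of the ratio ranged from −0.17 to 0.14 in the former and from 1.00 to 1.89 in the latter. A second list held 6 markers of type II NBs, which make intermediate progenitors, and of those progenitors. The published study places type II NBs in the central brain, whereas these libraries are from VNCs. Which cells gave the reads of these markers was not tested. The 6 markers differed by −0.56 to 1.07 in the knock-down comparison and by −1.23 to 0.60 in the overexpression comparison. Against the sum of this list the CR43283 ratio differed by 0.45 (pooled SD 0.24) and 1.39 (pooled SD 0.21), so the knock-down value depends on the marker set.

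stau behaved otherwise. Its ratio to the NB marker sum was 0.279, 0.303 and 0.268 with chinmo RNAi, 0.194, 0.181 and 0.179 in prosRNAi, and 0.153, 0.167 and 0.177 in prosRNAi, chinmoFL. The ratio was lower in prosRNAi than with chinmo RNAi by −0.62 on the log2 scale (pooled SD 0.08), without overlap, and the further difference of −0.16 (pooled SD 0.09) in the overexpression comparison was without overlap for the sum of the markers. Against each marker taken alone the difference of the stau ratio ranged from −0.80 to −0.49 in the knock-down comparison. It ranged from −0.67 to 0.21 in the overexpression comparison and was above 0 for 3 of the 7 markers (mira, insc and CycE), so its direction there depends on the marker. Against the sum of the type II NB and intermediate progenitor markers the stau ratio differed by −0.17 (pooled SD 0.20) and −0.28 (pooled SD 0.16).

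**Figure D2:**
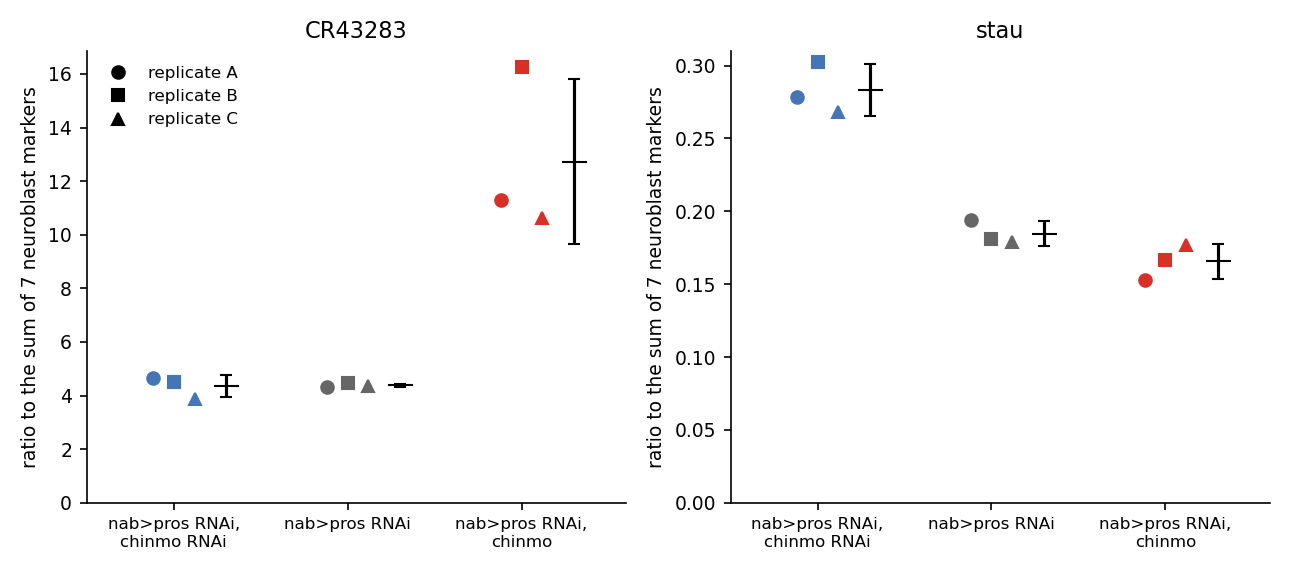
Ratio of CR43283 (left) and of stau (right) to the sum of 7 neuroblast markers in each library, with the mean ± SD of 3 libraries per condition in black. CR43283 lies at 3.88 to 4.66 times the marker sum in the 6 libraries without chinmo overexpression and at 10.6 to 16.2 times with it, whereas stau lies at 0.268 to 0.303 times with chinmo RNAi and at 0.153 to 0.194 times in the other libraries.

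Other cell types also varied. The summed level of 8 neuron markers was 61396 to 88848 with chinmo RNAi, 40692 to 53814 in prosRNAi and 20086 to 33744 in prosRNAi, chinmoFL, lower at each step without overlap, and 5 of the 8 fell in the knock-down (17.9% of all genes tested fell) and 1 in the overexpression comparison (8.26% of all genes). The sum of 5 fat body markers ran from 11996 to 447876 over the libraries and that of 4 hemocyte markers from 2881 to 18388, both with the highest group mean with chinmo RNAi. Sums over 6 glia markers overlapped between all conditions, but the members went opposite ways: 4 fell and 1 rose in the knock-down comparison (log2 differences −1.27 to 0.64), and 1 fell and none rose in the overexpression comparison. The 5 muscle markers gave 1059 to 10777 counts and 6 salivary gland markers at most 907. None of these markers was at 0 in every library. Their part in the levels of CR43283 and stau was not tested.

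Imp rose with each step of Chinmo, as CR43283 was higher at each. Imp had 6423, 6906 and 4535 normalized counts with chinmo RNAi, 12344, 12769 and 16561 in prosRNAi, and 59300, 85036 and 49217 with chinmo overexpression. The log2 differences were 1.23 (SE 0.19, limma adjusted p = 0.00292) and 2.19 (SE 0.21, adjusted p = 0.00201). Syp had 58091, 50105 and 38046 counts with chinmo RNAi, 65833, 65332 and 54215 in prosRNAi, and 37701, 41292 and 50345 with chinmo overexpression. Its knock-down difference was 0.36 (SE 0.19, adjusted p = 0.189) with overlapping libraries. In the overexpression comparison Syp fell by 0.52 (SE 0.13, adjusted p = 0.0386), a call kept in 12 of 19 alternative analyses, whose adjusted p ran from 0.000379 to 0.169. lin-28, another gene of young NBs, rose from 6.56 to 13 counts with chinmo RNAi to 153 to 194 in prosRNAi and 517 to 607 with chinmo overexpression (log2 differences 4.26 and 1.67, adjusted p = 0.000306 and 0.00143).

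Over the 9 libraries, CR43283 had a Pearson correlation on log2 values of 0.95 with chinmo and of 0.98 with Imp (Spearman 0.92 and 0.90). With Syp it was −0.20 (Spearman −0.03). These coefficients describe 9 points in 3 conditions, so they mostly restate the differences between conditions, and they carry no p. The points share library depth and the conditions themselves. Such values are frequent here: of 8695 other genes with a mean of at least 50 counts, 814 had a correlation above 0.9 with CR43283 and 636 below −0.9, together 16.7%. Imp was the 34th and chinmo the 305th from the top of this order. Within conditions, taken on deviations from the condition means, the correlation of CR43283 was 0.60 with chinmo, 0.63 with Imp and 0.65 with Syp. These are common values, 1814th, 1595th and 1453rd of the 8695 genes, and the median over the quintile of longest transcripts was 0.53. Within the 3 prosRNAi libraries alone CR43283 was lowest in replicate C, where chinmo and Imp were highest. Without the 2 libraries farthest from the median of the partner gene, the 9-library values became 0.90 for chinmo, 0.97 for Imp and −0.52 for Syp. Leaving out prosRNAi, chinmoRNAi replicate C alone gave −0.62 for Syp.

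stau followed Syp instead. The Pearson correlation of stau with Syp over 9 libraries was 0.97 (Spearman 0.95), the 3rd highest of 8695 genes, and only 0.564% of genes lay beyond 0.9 in either direction. On deviations from the condition means it was 0.94, where 4.83% of genes were above 0.9 and Syp was the 164th. Both are long transcripts, and in the quintile of longest transcripts the median within-condition correlation with stau was 0.58, against −0.50 in the shortest quintile. Removing the length trend gave 0.97, and leaving out the 2 libraries farthest in Syp gave 0.96. Replicate C was the lowest for both genes with chinmo RNAi and in prosRNAi, and the highest for both with chinmo overexpression. The correlation of stau with chinmo was −0.40 and with Imp −0.29, and with CR43283 −0.16. Without prosRNAi, chinmoRNAi replicate C, those with chinmo and Imp were −0.70 and −0.67.

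**Figure D3:**
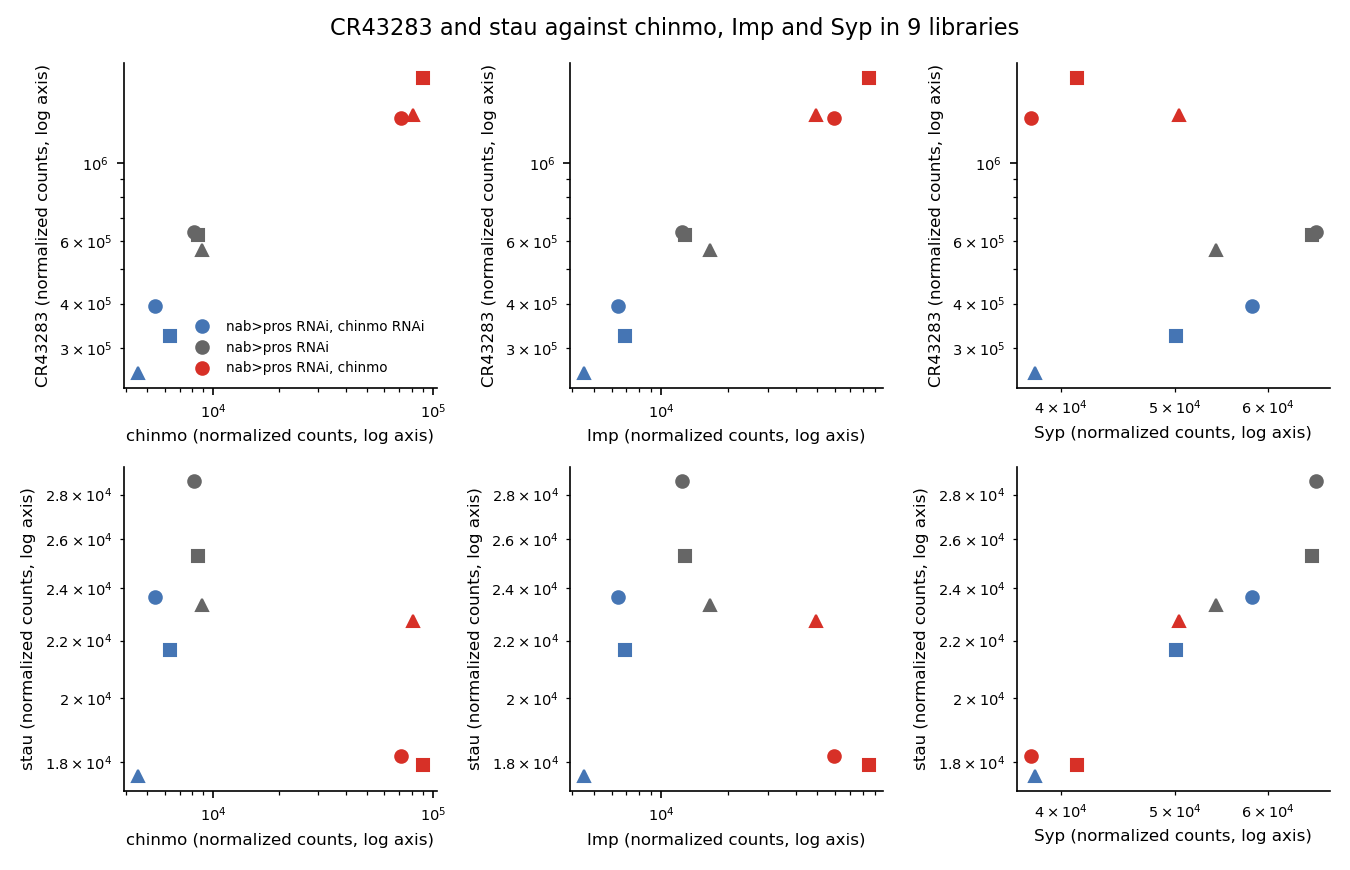
CR43283 (top) and stau (bottom) against chinmo, Imp and Syp in normalized counts on log axes, 1 point per library, coloured by condition and shaped by replicate (circle A, square B, triangle C). CR43283 is higher where chinmo and Imp are higher, in 3 separate clusters (r = 0.95 and 0.98), and stau and Syp lie along 1 line that mixes the conditions (r = 0.97).

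**Figure D4:**
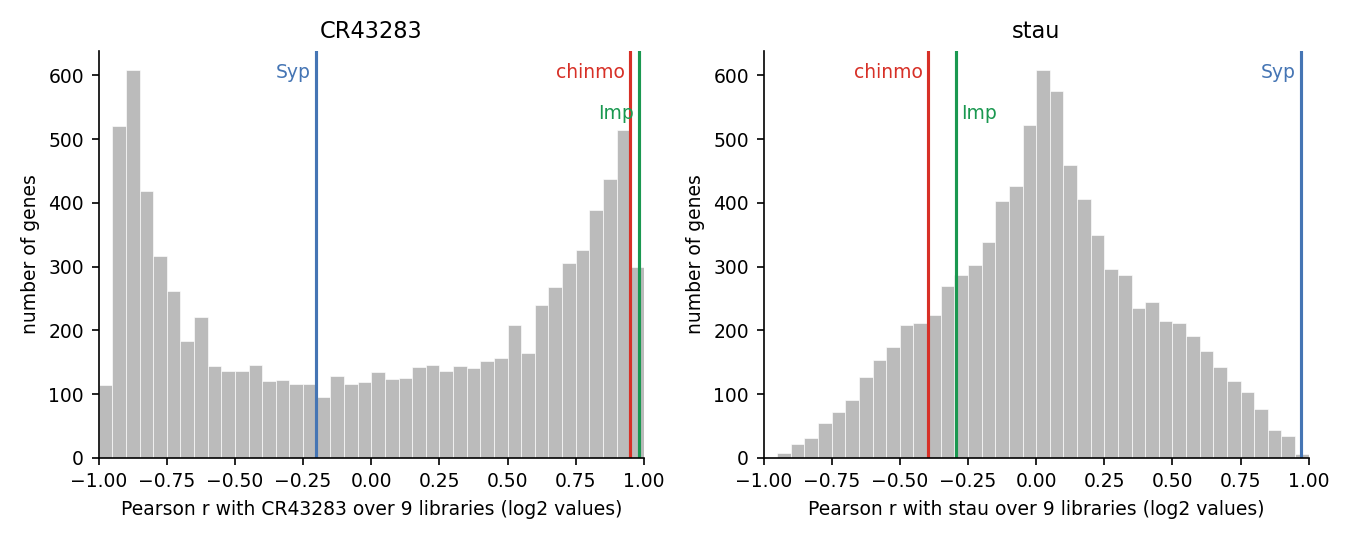
Number of genes by their Pearson correlation with CR43283 (left) and with stau (right) over 9 libraries, for 8695 genes with a mean of at least 50 normalized counts, with chinmo, Imp and Syp marked. With CR43283 the genes pile up toward both ends, so that the 0.95 of chinmo is only the 305th highest, whereas the 0.97 of Syp with stau is the 3rd highest.

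The 5 genes most like CR43283 over the 9 libraries were CG16908 (r = 0.996), CG1358 (0.995), CG6745 (0.993), Elp2 (0.992), which encodes a subunit of the Elongator complex, and CDC45L (0.992), whose product is part of the replicative helicase. CG16908 was also the closest of these on deviations from the condition means (0.96), with 1006 ± 145, 1510 ± 58.2 and 2359 ± 143 counts (SD, n = 3) from low to high Chinmo. The 3 genes most opposed to CR43283 were Cpr78E (−0.990), a cuticle protein gene, CG34232 (−0.988) and CG11426 (−0.986). Cpr78E had 443 to 1219 counts with chinmo RNAi, 164 to 296 in prosRNAi and 25.4 to 50.9 in prosRNAi, chinmoFL.

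For stau the closest genes were CG9536 (r = 0.993), CG5746 (0.975), Syp (0.971), Ptpmeg (0.961), a protein tyrosine phosphatase gene, and CG7369 (0.958). The lowest were CG6543 (−0.938), CG3603 (−0.931) and Spn47C (−0.930), a serpin gene. Removing the length trend lowered the value for CG9536 to 0.80 and left CG5746, Syp and Ptpmeg at 0.96 to 0.97. CG9536 spanned a narrow range, from 1476 to 1962 counts over the 9 libraries.

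The measured neighbours of CR43283 on the chromosome arm are, in order, CG17734 and CG5214 on one side and the long noncoding RNA CR31386 and pros on the other, with 2 annotated noncoding genes before pros that were not measured under a matching name. pros is the gene targeted by RNAi in all libraries. It had 31510 to 42387 counts with chinmo RNAi, 15859 to 19997 in prosRNAi and 8607 to 10751 in prosRNAi, chinmoFL. It fell by 1.03 (SE 0.15, limma adjusted p = 0.00266) in the knock-down and by 0.88 (SE 0.11, adjusted p = 0.00461) in the overexpression comparison, opposite in direction to CR43283. pros is also expressed in new neurons, whose markers fell in the same libraries, and what part this had was not tested.

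CR31386, transcribed from the same strand as CR43283, had 6402, 4856 and 9220 counts with chinmo RNAi and 23545, 20967 and 17483 in prosRNAi. It rose by 1.64 on the log2 scale (SE 0.23, adjusted p = 0.00221). In prosRNAi, chinmoFL it had 17552, 20669 and 20966 counts, overlapping prosRNAi, with a difference of −0.06 (SE 0.12, adjusted p = 0.767). The level of this neighbour therefore differed between conditions in 1 of the 2 comparisons in which CR43283 differed.

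CG17734, on the far side, fell by 0.44 (SE 0.13, adjusted p = 0.0339) in the knock-down comparison, a call kept in 11 of 19 alternatives (adjusted p 0.0174 to 0.141), and rose by 1.19 (SE 0.13, adjusted p = 0.00261) in the overexpression comparison. CG5214, the nearest measured gene, differed by 0.18 (SE 0.12, adjusted p = 0.289) and rose by 0.49 (SE 0.08, adjusted p = 0.0103). No neighbour was called in the same direction as CR43283 in both comparisons.

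**Figure D5:**
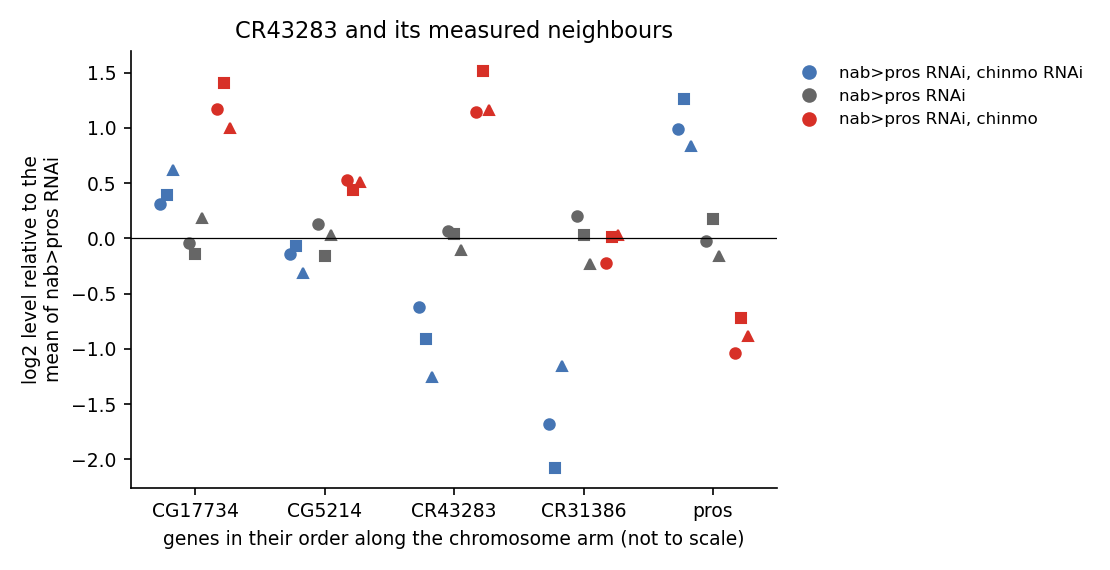
Log2 level of CR43283 and of the 2 nearest measured genes on each side in each library, relative to the mean of the 3 prosRNAi libraries. Genes are in their order along the arm (not to scale), with replicates A, B and C as circle, square and triangle. CR43283 is low with chinmo RNAi and high with chinmo overexpression, CR31386 is low with chinmo RNAi only, and pros runs the opposite way to CR43283.

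Around stau, CG5756 had 3.71 to 21.5 counts in the 6 libraries without chinmo overexpression and 179, 232 and 169 with it, a rise of 4.55 (SE 0.42, adjusted p = 0.00172). CG34196 had 0 counts in all 9 libraries. Spn55B, a serpin gene, differed by −0.11 (SE 0.10, adjusted p = 0.466) and −0.18 (SE 0.07, adjusted p = 0.139). Dip3 rose by 0.41 (SE 0.09, adjusted p = 0.0124) in the knock-down comparison, lost without prosRNAi replicate A (adjusted p = 0.0653) or B (0.0781), and differed by −0.05 (SE 0.07, adjusted p = 0.671) in the overexpression comparison.

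Among 741 noncoding RNA genes of the table (by annotated biotype or a CR symbol), 228 had no reads and 206 had reads in every library. The CR symbol also brought in 50 genes with no matched biotype, 5 protein-coding genes and 4 pseudogenes. It likewise brought in 5 ribosomal RNA pseudogenes, 1 rRNA gene and 1 snRNA gene. CR43283 alone took 33.0% to 43.9% of all counts on the 741 genes with chinmo RNAi. Its part was 45.0% to 54.7% in prosRNAi and 70.6% to 79.7% in prosRNAi, chinmoFL. The other noncoding genes together kept to 1.138% to 1.918% of all counts in the 9 libraries. The 5 next in mean count were CR41602, annotated as a ribosomal RNA pseudogene and so open to reads of near-identical copies, pncr002:3R, CR42862, roX1, the dosage compensation RNA of males, and CR18854.

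roX1 rose from 38899 to 49510 counts with chinmo RNAi to 75704 to 82996 in prosRNAi (log2 difference 0.89, SE 0.15, adjusted p = 0.00423) and had 69395 to 74027 in prosRNAi, chinmoFL (−0.12, SE 0.08, adjusted p = 0.331). CR18854, which had no matched biotype, fell by 0.74 (SE 0.12, adjusted p = 0.00328) and then differed by −0.04 (SE 0.06, adjusted p = 0.667). The remaining 3 passed in neither comparison. pncr002:3R varied from 13175 to 102641 counts within prosRNAi, chinmoFL, and CR41602 from 119052 to 332067 within prosRNAi.

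Of the 740 other noncoding genes, 239 could be tested in the knock-down comparison, where 11 rose and 25 fell, against 14.1% and 17.9% of all genes. The median log2 difference of the 239 was −0.11, against −0.05 over all genes. Without prosRNAi, chinmoRNAi replicate C the split became 26 up and 14 down, and with quantile normalization 23 up and 9 down, so the direction is not settled. Leaving out prosRNAi replicate A or B left 17 calls each. In the overexpression comparison 219 could be tested, of which 18 rose and 7 fell (9.74% and 8.26% of all genes). Scaled to equal totals the split was 15 and 12, and without a variance trend in limma it was 15 and 13. Leaving out prosRNAi replicate A, B or C left 13, 6 and 13 calls, and leaving out prosRNAi, chinmoFL replicate A or B left 14 and 11.

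Of 32 listed genes of RNA localization, the process in which Staufen acts, 30 could be tested, and 5 rose and 3 fell in the knock-down comparison, or 16.7% and 10% against 14.1% and 17.9% of all genes (median log2 difference 0.10, against −0.05 over all genes). The largest rises were those of Imp and of yps, which encodes a Y-box RNA-binding protein and went from 29562 to 34424 counts to 47711 to 51032 (0.63, SE 0.12, adjusted p = 0.00698). aret, encoding the translational repressor Bruno, fell by 1.11 (SE 0.18, adjusted p = 0.00397), and Klc, the kinesin light chain gene, by 0.38 (SE 0.09, adjusted p = 0.0131). Without prosRNAi, chinmoRNAi replicate C, 7 rose and 9 fell; leaving out prosRNAi replicate A or B left 3 calls each and leaving out C left 5.

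In the overexpression comparison 4 RNA localization genes rose and 2 fell, or 13.3% and 6.67% against 9.74% and 8.26% of all genes (median 0.02, against −0.02). They included Imp, orb, which encodes an RNA-binding protein of cytoplasmic polyadenylation and rose by 0.64 (SE 0.12, adjusted p = 0.0141), aret, which fell by 1.06 (SE 0.22, adjusted p = 0.0228), and Syp. Imp was among those that rose and Syp among those that fell. Both were known beside CR43283 when the members were chosen. The calls of Imp in both comparisons and of Syp here are therefore not independent of that choice. Leaving out prosRNAi replicate B left 1 call, and leaving out prosRNAi replicate A or prosRNAi, chinmoFL replicate A left 3 each. Scaled to equal totals, 3 rose and 5 fell, and with quantile normalization 3 rose and 4 fell.

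Of 19 genes of asymmetric NB division, 8 rose and 2 fell in the knock-down comparison, or 42.1% and 10.5% against 14.1% and 17.9% of all genes (median 0.31, against −0.05). mira, the adaptor that carries Staufen, rose by 0.95 (SE 0.13, adjusted p = 0.00233), with 28201 to 34418 counts with chinmo RNAi and 54559 to 61797 in prosRNAi. pon, which encodes the partner of Numb, rose by 0.91 (SE 0.12, adjusted p = 0.00146), and insc, which orients the division, by 0.81 (SE 0.14, adjusted p = 0.00431). Those that fell were pros and Khc-73, a kinesin gene (−0.48, SE 0.14, adjusted p = 0.0363). mira and insc are also among the 7 NB markers, so the 2 lists overlap. brat, the tumor suppressor carried by Miranda, had a difference of −0.39 (SE 0.17, adjusted p = 0.109) with overlapping libraries.

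In the overexpression comparison no gene of asymmetric division rose and 3 fell, or 15.8%, against 9.74% and 8.26% of all genes (median −0.04, against −0.02). Those that fell were pros, mira and G-ialpha65A, a G protein subunit gene named after its values were seen (−0.25, SE 0.06, adjusted p = 0.0279). mira was 35607 to 49209 counts in prosRNAi, chinmoFL, a difference of −0.46 (SE 0.13, adjusted p = 0.0489), a call kept in 8 of 19 alternatives (adjusted p 0.00227 to 0.177). insc differed by −0.48 (SE 0.14, adjusted p = 0.0602) and brat by −0.16 (SE 0.13, adjusted p = 0.433). The split of calls depends on the scaling: 2 up and 4 down with size factors recomputed on these 6 libraries or with upper quartile scaling, 1 and 5 with quantile normalization, and 0 and 7 with equal totals. Without prosRNAi replicate B, or without prosRNAi, chinmoFL replicate A or B, 1 call was left, and without prosRNAi, chinmoFL replicate C there were 5.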

How the data were processed

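RNA was measured in dissected VNCs of 3 conditions with 3 libraries each, grouped by the genotype in the labels. The authors selected poly-A RNA, made stranded libraries, aligned single reads with TopHat 2.0.9 and Bowtie 2.1.0 to dm3, kept alignments with at most 3 mismatches, counted reads per gene by strand with HTSeq 0.5.3p9 and normalized with DESeq (version 1.2.5 in the submitters' processing notes). The published methods name a later DESeq version. The deposited values are signal values, reads divided by a size factor per library. Whole reads were recovered for 100% of values (within 0.01 read), giving 30677075 to 43415151 reads per library.

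Genes other than CR43283 and stau were tested on log2(value + 1) in the 6 libraries of a comparison, using limma 3.58.1 (R 4.3.3) with a variance trend. A gene entered if its values summed to at least 15 and was called at a Benjamini-Hochberg adjusted p under 0.05. On simulated data this was checked to recover known changes. Members, gene lists and alternatives were chosen with earlier results of these data known. The genes named are both members, chinmo, Imp, Syp, lin-28, pros and Dcr-2, the 2 nearest measured neighbours on each side, the 5 most and 3 least correlated genes, the 5 most abundant other noncoding genes, mira, insc and brat, and the 2 strongest calls each way per list and comparison. CG34196, at 0, is among the neighbours. CycE is named outside this rule, as a marker that was called.

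Alternatives were edgeR 4.0.16 and DESeq2 1.42.0 on the recovered reads, other scalings, pseudocounts of 0.5 and 10, other filters, leaving out each library, and a replicate block. Removal of a length trend from the correlations, annotated biotypes only, and RNA localization without Imp and Syp were added after seeing the data. Lengths, names and gene order came from the BDGP6 annotation, which is another build than dm3, so no coordinates are given. It matched 14952 of 15340 genes. Replicates came from different parents and pooled different numbers of nervous systems. The labels give no sequencing batch per library, so none was modelled.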

Additional observations from a re-analysis of the deposited data

How the results depend on the processing

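The knock-down and overexpression differences of CR43283 (0.93 and 1.27) and of stau (0.30 and −0.40) kept their direction and moved by less than the replicate SD under every scaling, tool, pseudocount and omission tried. Between the outer conditions, removal of the length trend moved CR43283 from 2.21 to 2.48, and stau, at −0.09, changed sign to 0.086 with that removal and to 0.019 with edgeR. Leaving out single libraries gave 0.77 to 1.09, 1.15 to 1.34 and 2.04 to 2.36 for CR43283 and 0.18 to 0.40, −0.51 to −0.32 and −0.22 to −0.0027 for stau. On deviations from condition means the correlations of CR43283 were 0.60 with chinmo and 0.63 with Imp. That of CR43283 with Syp became −0.39 on linear values, −0.033 as Spearman, −0.34 at equal totals, 0.65 on deviations, −0.52 without the 2 farthest libraries and 0.15 without the length trend, and ran from −0.62 to −0.0081 over omissions. Stau with chinmo gave −0.12 as Spearman, −0.57 at equal totals, 0.32 on deviations and −0.10 without the length trend (omissions −0.70 to −0.22). Stau with Imp gave −0.50 on linear values, −0.15 as Spearman, −0.47 at equal totals, −0.15 on deviations, 0.39 without the 2 farthest libraries and 0.00039 without the length trend (omissions −0.67 to −0.061). The lowest of these omissions was in each case without prosRNAi, chinmoRNAi replicate C. Stau with Syp moved by less than 0.1 under all of these.

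RNA localization calls (8 and 6 in the knock-down and overexpression comparison) became 5 and 2 without a variance trend and the 6 became 3 in a fit of all 9 libraries. Asymmetric division calls in the overexpression comparison (3) became 5 with a filter on a mean of 10, 6 with recomputed size factors, 6 with upper quartile scaling, 6 with quantile normalization, 7 at equal totals, 9 with DESeq2, 1 without a variance trend and 1 in a fit of all 9 libraries. Over omissions, RNA localization ran from 3 to 16 and from 1 to 5, asymmetric division from 1 to 5 in the overexpression comparison, and noncoding genes from 17 to 40 and from 6 to 21. Causes of these moves were not tested. Replicates A of prosRNAi and of prosRNAi, chinmoRNAi deviated together (correlation 0.48). The other same-letter pairs ran from −0.54 to 0.14, and the letters were not taken as pairs in the main fits. With the replicate block the overexpression calls fell to 1 RNA localization, 1 asymmetric division and 1 noncoding gene, and the knock-down calls were 8, 9 and 27. Of the single genes, Syp (adjusted p = 0.169), mira (0.177), Dcr-2 (0.0558), CG5214 (0.058) and CG17734 (0.05) lost their overexpression call under the block, and brat (0.0497) gained one in the knock-down comparison. Depth limits the genes with few counts, such as CG5756 and lin-28, rather than CR43283 or stau.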

Other observations

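Staufen is 1 of several proteins with double-stranded RNA-binding domains, and 10 other such genes were measured. In the knock-down comparison 2 rose and 1 fell, and in the overexpression comparison 2 rose and 2 fell, against 32% and 18% of all genes called in either direction. Dcr-2 went from 21190 to 27234 counts with chinmo RNAi to 73432 to 97186 in prosRNAi and 149980 to 184179 with chinmo overexpression (log2 differences 1.795 and 0.990, limma adjusted p = 0.000498 and 0.0072), and its reads include those of the UAS-dicer2 transgene carried by every animal. pasha, a partner of Drosha in microRNA processing, rose by 0.40 and 0.54 (adjusted p = 0.0271 and 0.0222). loqs, a partner of Dicer proteins, fell by 0.57 and 0.45 (adjusted p = 0.0378 and 0.00236), and Adar, an RNA editing enzyme gene, differed by −0.17 (adjusted p = 0.261) and fell by 0.30 (adjusted p = 0.0171).

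Relative to Dcr-2, CR43283 was lower by −0.86 on the log2 scale (pooled SD 0.23) in the knock-down comparison and higher by 0.28 (pooled SD 0.24) in the overexpression comparison. The corresponding values of stau were −1.49 (pooled SD 0.26) and −1.39 (pooled SD 0.29). These ratios were computed after the data had been seen.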
